A study of Homo sapiens with 9 samples.

Results

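CFTR and 5 other genes of epithelial ion transport were examined in OVCAR5 cells, out of 60649 gene identifiers in the deposited count table. The 6 genes were given by symbol and matched through GENCODE: CFTR, ANO1, SLC12A2, SCNN1A, SLC4A4 and KCNN4. CFTR was picked on its large difference between the libraries labelled SM4 and those labelled SM2 in these same data, so its values are given as a description in every comparison, with no test. All 6 passed the filter on low counts, and the 5 others were tested.

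OVCAR5 is an established epithelial ovarian cancer cell line. RNA sequencing gave 3 libraries labelled NC, 3 labelled SM2 and 3 labelled SM4, and the series describes SM2 and SM4 as knockdowns of METTL3, the catalytic subunit of the enzyme that writes N6-methyladenosine on RNA. All lines were described as stable lines made by lentiviral transduction and puromycin selection. The series text calls NC parental, whereas a control hairpin appears in the study's methods, GEO's labels do not tie SM2 or SM4 to a hairpin, and a source field names each SM4 library after another OVCAR line although the cell line field reads OVCAR5 throughout.

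Salt and water cross an epithelium through proteins that are placed on opposite faces of the cell. CFTR, a chloride and bicarbonate channel opened by cyclic AMP signalling, and ANO1, a chloride channel opened by calcium, let anions out at the apical face, while the cotransporters SLC12A2 (NKCC1) and SLC4A4 (NBCe1) load chloride and bicarbonate at the basolateral face. KCNN4, a calcium-activated potassium channel, keeps the membrane voltage that drives secretion, and SCNN1A encodes the alpha subunit of the epithelial sodium channel, which absorbs sodium.

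METTL3, the gene named as the target, did not follow the labels. It was at 36.3, 34.4 and 36.6 CPM (counts scaled to library size, with TMM normalization for library composition) in NC, at 37.1, 39.8 and 40.01 in SM2, and at 60.6, 57.5 and 62.4 in SM4. Its log2 fold change was 0.12 (SE 0.0549, edgeR adjusted p = 0.12) for SM2 against NC and 0.75 (SE 0.0539, adjusted p = 2.21e-09) for SM4 against NC. METTL3 was thus highest in the libraries labelled SM4, described as a knockdown, and lower in those labelled NC, described as the control. SM4 against SM2 gave 0.63 (SE 0.0538, edgeR adjusted p = 7.46e-08). The paper reports METTL3 lower with either METTL3 hairpin than with its control hairpin. Here NC and SM2 were lower than SM4, and whether the labels were exchanged was not tested. Groups are therefore named by their labels, and a comparison means a set of labelled libraries against another. No direction against NC can be read as knockdown against control. Exons of METTL3 overlap those of TOX4 on the other strand, which stood at 96.9 to 108 CPM. The log2 fold changes of TOX4 were -0.062 for SM2 against NC, -0.068 for SM4 against NC and -0.007 for SM4 against SM2. Whether strand was used in counting is not stated, and the part of TOX4 in the METTL3 values was not tested.

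The libraries held 44103272 to 63693728 counts. SM2 replicate 3 stood apart from the other SM2 libraries: a chi-square comparison of counts gave 13.4 and 16 per degree of freedom for its 2 replicate pairs and 4.14 to 6 for the 7 other replicate pairs. Results that shift without it are given both ways below. All 6 epithelial markers (EPCAM, CDH1, KRT8, KRT18, KRT19 and CLDN4) were above 1 CPM in every group, with a summed level of 10217.7 to 10613.9 CPM in NC, 11592.2 to 12107.2 in SM2 and 11173.4 to 11862.5 in SM4. The keratins KRT8, KRT18 and KRT19 made up most of that sum and had higher means in SM2 and SM4 than in NC. EPCAM (707, 626 and 656 CPM in NC, SM2 and SM4) and CDH1 (813, 682 and 631) went the other way. CLDN4 averaged 322, 304 and 329 CPM. Among markers of other cell types, KDR, of endothelium, had 0 counts in all 9 libraries. PTPRC, which marks leukocytes, reached at most 0.0755 CPM. Other leukocyte markers were present: LYZ averaged 36.7 CPM in NC, 51.9 in SM2 and 32.7 in SM4, and CD14 averaged 5.76, 8.48 and 10.3 CPM. The summed leukocyte list, with 2 of 6 genes above 1 CPM, lay between 41.2 and 45.3 CPM in NC, 59.2 and 63.1 in SM2 and 41.2 and 44.7 in SM4. The fibroblast list had COL1A1 alone above 1 CPM, and its sum lay between 21.3 and 27.3 CPM over all 9 libraries. The summed endothelial list, carried by PECAM1 alone above 1 CPM in every group, lay between 6.15 and 7.04 CPM in NC, 8.81 and 10.1 in SM2 and 13.8 and 16.4 in SM4. The leukocyte sum was highest in SM2, as CFTR was, and the endothelial sum was highest in SM4, as ANO1 and KCNN4 were, and their part in those values was not tested. In bulk RNA, fewer cells that express a gene and less RNA per cell cannot be told apart.

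The stretch of genome before the start site is shown for CFTR and for ANO1 and KCNN4, which were the members higher in SM4 than in SM2. The 250 bases end at the base before the start that the RefSeq promoter table uses (GRCh38.p14). For ANO1 that start is the GENCODE start and lies inside the longer RefSeq span (chr11:69965997-70189530). They cover chr7:117479775-117480024 on the plus strand for CFTR, chr11:69985657-69985906 on the plus strand for ANO1 and chr19:43780974-43781223 on the minus strand for KCNN4. Promoters were found for 5 of the 6 members, the exception being SCNN1A. Capitals mark CCAAT in CFTR and GGGCGG in ANO1 and KCNN4, on either strand, so that ATTGG and CCGCCC are matches on the reverse strand.
CFTR: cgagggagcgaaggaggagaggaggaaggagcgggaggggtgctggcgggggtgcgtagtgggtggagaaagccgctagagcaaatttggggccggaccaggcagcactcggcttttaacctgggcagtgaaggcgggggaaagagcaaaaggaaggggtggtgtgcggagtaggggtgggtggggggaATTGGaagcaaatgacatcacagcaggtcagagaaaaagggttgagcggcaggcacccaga
ANO1: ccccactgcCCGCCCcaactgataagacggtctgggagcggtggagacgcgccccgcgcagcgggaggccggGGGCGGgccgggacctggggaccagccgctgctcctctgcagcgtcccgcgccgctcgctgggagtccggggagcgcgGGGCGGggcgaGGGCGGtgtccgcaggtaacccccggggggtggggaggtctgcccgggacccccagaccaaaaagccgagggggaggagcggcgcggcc
KCNN4: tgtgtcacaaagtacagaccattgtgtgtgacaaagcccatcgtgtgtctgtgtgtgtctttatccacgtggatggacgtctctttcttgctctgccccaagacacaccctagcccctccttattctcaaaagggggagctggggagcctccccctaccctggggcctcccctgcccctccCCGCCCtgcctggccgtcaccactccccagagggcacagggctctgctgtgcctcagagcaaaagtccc
The CFTR stretch held 11 CpG dinucleotides at 61.2% GC, the ANO1 stretch 30 at 78% GC and the KCNN4 stretch 5 at 60% GC, where the median of 35116 RefSeq promoters was 11 CpG. CFTR had a single CCAAT match, starting 61 bases before its start site, a motif held by 32% of those promoters. GGGCGG, held by 42.6% of the promoters, matched 4 times in ANO1, 1 time in KCNN4 and 3 times in SLC12A2, and not in CFTR. TATAAA (10.7% of promoters), TGACGTCA (1.65%) and the interferon-stimulated response element core (3.02%) matched none of the 3 stretches shown. These are letters in a window and not measured binding sites.

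CFTR had the widest spread of the 6 genes between groups, a rank that its choice on SM4 against SM2 favoured in advance. Its level was 3.19, 3.15 and 3.78 CPM in NC (140, 171 and 221 counts), 5.74, 5.33 and 5.57 CPM in SM2 (262, 256 and 295 counts) and 0.97, 1.3 and 1.17 CPM in SM4 (59, 82 and 60 counts). Every SM2 library was above every NC library, and every SM4 library was below both. The group means were 3.37 ± 0.351 CPM in NC, 5.54 ± 0.206 in SM2 and 1.15 ± 0.165 in SM4 (SD, n = 3). The log2 fold change was 0.71 (SE 0.136) for SM2 against NC, -1.56 (SE 0.154) for SM4 against NC and -2.27 (SE 0.151) for SM4 against SM2, which is 4.83-fold lower in SM4. The other members spanned less than this: the next in size was SLC4A4, at 1.11 for SM2 against NC. Without SM2 replicate 3 the SM4 against SM2 value of CFTR was again -2.27.

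CFTR (ENSG00000001626.16) lies on the plus strand of chromosome 7, at chr7:117287120-117715971 in GENCODE v44 and at chr7:117480025-117668665 in RefSeq, so the GENCODE model is longer on both sides. Exons of that longer model overlap exons of WNT2, CTTNBP2 and CFTR-AS1 on the other strand. WNT2 and CFTR-AS1 had 0 counts in all 9 libraries, and CTTNBP2 lay between 0.0329 and 0.175 CPM. The counts given to CFTR were thus well above those of every gene whose exons overlap it.

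**Figure D1:**
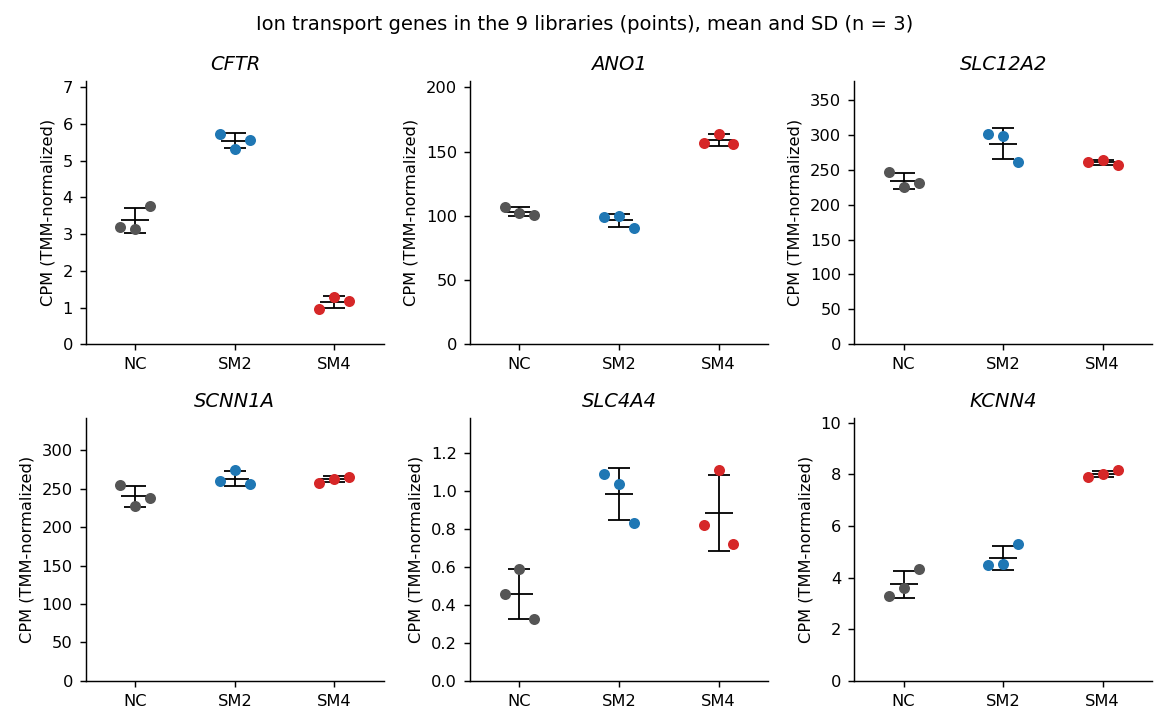
TMM-normalized CPM (vertical axes, each starting at 0) of the 6 genes in the NC, SM2 and SM4 libraries; points are single libraries, and the black marks give the mean and SD (n = 3). CFTR sits between 5.33 and 5.74 CPM in SM2 and between 0.97 and 1.3 in SM4, while ANO1 and KCNN4 are highest in SM4.

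ANO1, the calcium-activated chloride channel (ENSG00000131620.17, chr11:69985907-70189530, plus strand), was higher in SM4 than in the other groups. It stood at 107, 102 and 101 CPM in NC, 98.8, 99.7 and 90.7 in SM2 and 157, 164 and 156 in SM4. The SM4 libraries did not overlap with any other library. ANO1 rose by a log2 fold change of 0.62 (SE 0.0469, edgeR adjusted p = 4.42e-09) for SM4 against NC and of 0.72 (SE 0.0471, adjusted p = 1.54e-09) for SM4 against SM2, and SM2 against NC gave -0.10 (SE 0.0474, adjusted p = 0.143, approximate 95% interval -0.19 to -0.008). Without SM2 replicate 3, the lowest library of the 9, that last value was -0.055 and SM4 against SM2 was 0.68.

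The pair of apical chloride channels thus differed in opposite directions between SM4 and SM2. Per kilobase of the canonical transcript, ANO1 exceeded CFTR 42.6-, 41.2- and 34-fold in NC, 21.9-, 23.8- and 20.7-fold in SM2 and 206-, 160.3- and 169-fold in SM4. The ratio was lowest in the 3 SM2 libraries and highest in the 3 SM4 libraries, with no overlap between groups. Because CFTR was picked on part of this contrast, the ratio is a description.

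KCNN4, the potassium channel opened by the same calcium signal (ENSG00000104783.14, chr19:43766533-43780976, minus strand), followed a similar order to ANO1 between SM4 and the other groups. It stood at 3.29, 3.61 and 4.32 CPM in NC, 4.47, 4.53 and 5.3 in SM2 and 7.91, 8.01 and 8.15 in SM4. All SM4 libraries were above all SM2 libraries, and the lowest SM2 library was just above the highest NC library. KCNN4 rose by a log2 fold change of 1.09 (SE 0.117, edgeR adjusted p = 6.52e-07), or 2.14-fold, for SM4 against NC and of 0.75 (SE 0.115, adjusted p = 0.000115) for SM4 against SM2. The rise for SM2 against NC was smaller, 0.35 (SE 0.123, adjusted p = 0.0476), and the call was lost in 7 of 9 fits that left out a library, among them the fit without SM2 replicate 3 (0.26, adjusted p = 0.173).

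SLC12A2, the sodium-potassium-chloride cotransporter that loads chloride for secretion (ENSG00000064651.14, chr5:128083766-128189677, plus strand), was higher than NC in both other groups. It stood at 247, 225 and 231 CPM in NC, 302, 299 and 262 in SM2 and 262, 264 and 257 in SM4. Both groups lay above NC, while SM2 and SM4 met at SM2 replicate 3. SLC12A2 rose by 0.29 on the log2 scale (SE 0.0514, edgeR adjusted p = 0.000232) for SM2 against NC and by 0.15 (SE 0.0513, adjusted p = 0.0378) for SM4 against NC. SM4 against SM2 gave -0.14 (SE 0.0512, adjusted p = 0.0774, approximate 95% interval -0.24 to -0.041). That difference depended on SM2 replicate 3: without it the value was -0.21 with an adjusted p of 0.000542. The call for SM4 against NC was kept in 4 of the 9 fits that left out a library, over which the value ranged from 0.12 to 0.19, and it was lost without NC replicate 2, NC replicate 3 or any SM4 library.

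SLC4A4, the sodium-bicarbonate cotransporter (ENSG00000080493.18, chr4:71062667-71572087, plus strand), was the least abundant member, with 19 to 70 counts per library. It stood at 0.456, 0.589 and 0.325 CPM in NC, 1.09, 1.04 and 0.83 in SM2 and 0.822, 1.11 and 0.722 in SM4. All 6 SM2 and SM4 libraries were above all NC libraries, and SM2 and SM4 overlapped. SLC4A4 rose by a log2 fold change of 1.11 (SE 0.297, edgeR adjusted p = 0.00933) for SM2 against NC and of 0.96 (SE 0.295, adjusted p = 0.0235) for SM4 against NC. For SM4 against SM2 the value was -0.15 (SE 0.274, adjusted p = 0.793), and its approximate 95% interval of -0.69 to 0.39 leaves a difference of either sign possible at this depth. The SM2 call was lost without NC replicate 3 (lowest value over the fits that left out a library, 0.90), and the SM4 call was lost without NC replicate 1, NC replicate 3 or SM4 replicate 2 (lowest value 0.75).

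SCNN1A, the sodium channel subunit (ENSG00000111319.13, chr12:6346843-6377730, minus strand), differed least between groups. It stood at 255, 228 and 238 CPM in NC, 259.7, 274 and 256 in SM2 and 258, 263 and 266 in SM4. NC replicate 1 was close to the lowest SM2 and SM4 libraries. The log2 fold change was 0.13 (SE 0.0457, edgeR adjusted p = 0.0434) for SM2 against NC, 0.13 (SE 0.0456, adjusted p = 0.0535) for SM4 against NC and -0.005 (SE 0.0456, adjusted p = 0.965, approximate 95% interval -0.094 to 0.084) for SM4 against SM2. The values for SM2 and SM4 against NC thus had the same size on either side of the threshold. The SM2 call was kept in 2 of 9 fits that left out a library, and it was lost in all except those without NC replicate 1 or SM2 replicate 3, while the SM4 value passed without NC replicate 1 or SM2 replicate 3. Exons of SCNN1A overlap those of LTBR on the other strand, which stood at 179.5 to 201 CPM with log2 fold changes of 0.14, 0.085 and -0.056 in the same comparisons, and its part in the SCNN1A values was not tested.

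The other subunits that form the sodium channel with SCNN1A were nearly absent. SCNN1B reached at most 0.221 CPM (12 counts) and SCNN1G at most 0.0438 CPM (2 counts), and neither was tested. The delta subunit gene SCNN1D was present, at 5.15 to 5.67 CPM in NC, 6.72 to 9.34 in SM2 and 5.55 to 8.15 in SM4, and it rose by a log2 fold change of 0.62 (edgeR adjusted p = 0.00257) for SM2 against NC.

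**Figure D2:**
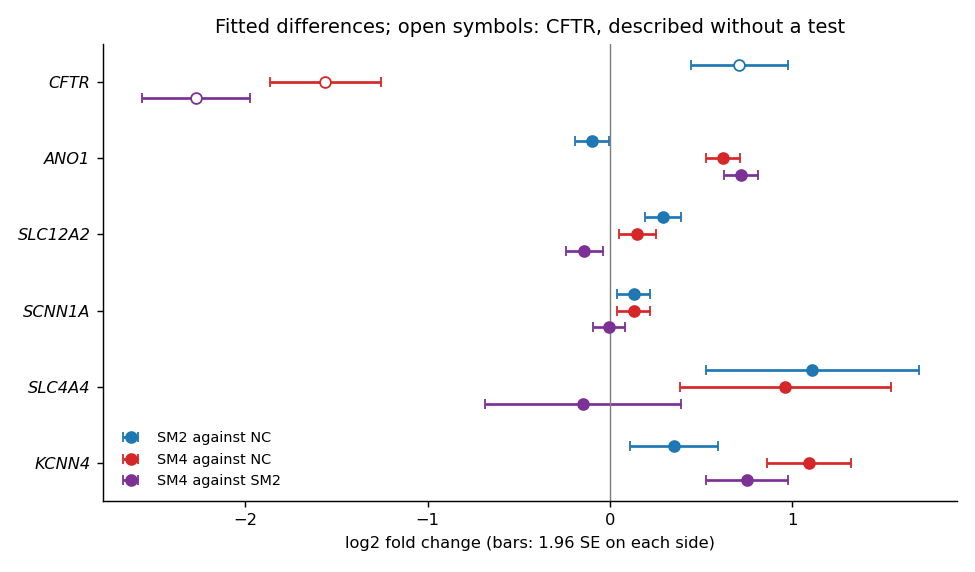
Log2 fold change (horizontal axis) of the 6 genes in the 3 comparisons from the edgeR fit, with bars of 1.96 SE on each side; open symbols mark CFTR, which was not tested. CFTR is at -2.27 for SM4 against SM2, where ANO1 is at 0.72 and KCNN4 at 0.75.

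Of the 5 tested members, 4 rose for SM2 against NC (SLC12A2, SCNN1A, SLC4A4 and KCNN4), where 22.3% of all 19674 tested genes were called, 12.0% as higher and 10.3% as lower. For SM4 against NC, 4 rose (ANO1, SLC12A2, SLC4A4 and KCNN4), where 21.2% of all genes were called, 11.0% as higher and 10.2% as lower. For SM4 against SM2, 2 rose (ANO1 and KCNN4), where 12.8% of all genes were called, 6.04% as higher and 6.76% as lower. No tested member was called lower in the main fit, a group-only model of all 9 libraries with the filter on low counts. SLC12A2 was called lower for SM4 against SM2 without SM2 replicate 3 (-0.21), without the filter (-0.14) and with a replicate block (-0.14). With only the 6 libraries compared in the fit, 2 members were called for SM2 against NC (SLC12A2 and SLC4A4). Over the 9 fits that left out a library, the count for SM2 against NC was 3 or, without NC replicate 2, NC replicate 3, SM2 replicate 2 or any SM4 library, 2. The count for SM4 against NC fell to 2 without NC replicate 3 or SM4 replicate 2. The 5 genes are few and were chosen with results of these data known, so the counts describe them and are not evidence about ion transport genes in general. The comparisons share libraries and are not independent of each other.

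The order of the 6 genes by level per kilobase was the same in all 3 groups: SCNN1A, SLC12A2, ANO1, KCNN4, CFTR and SLC4A4. In NC, SCNN1A lay between 72.3 and 80.9 CPM per kilobase, SLC12A2 between 32.8 and 36, ANO1 between 21.2 and 22.4, KCNN4 between 1.68 and 2.21, CFTR between 0.518 and 0.622 and SLC4A4 between 0.0421 and 0.0763. Neighbours in this order did not overlap between libraries in any group. The nearest approach was in SM4, where CFTR lay between 0.16 and 0.214 CPM per kilobase and SLC4A4 between 0.0935 and 0.144, and ANO1, at 32.6 to 34.3, came close to SLC12A2, at 37.3 to 38.4.

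GGACT, the best known form of the sequence at which METTL3 methylates RNA, was counted in the canonical transcript of each member. CFTR had 3 in 6070 bases, or 0.494 per kilobase, and 20.8% of 13785 tested protein-coding genes had a lower density. SLC12A2 and SLC4A4 were also low, at 0.582 and 0.648 per kilobase, with 25.9% and 30.7% of genes below them. ANO1 had 1.05 per kilobase and KCNN4 1.53, and SCNN1A had the highest density of the members at 1.91. The median of all genes was 0.935 per kilobase. Methylation itself was not measured in these libraries.

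A wider list of 113 other genes of epithelial ion transport, in 10 groups, was read in the same fit. After the filter 93 were tested. For SM2 against NC 20 rose and 19 fell (41.9% of the 93 called), for SM4 against NC 20 rose and 17 fell (39.8%), and for SM4 against SM2 7 rose and 10 fell (18.3%). Median log2 fold changes were 0.014, -0.005 and -0.020, beside -0.004, -0.001 and -0.000 over all tested genes. Changes therefore ran in both directions in similar number. Over all 19674 tested genes 22.3%, 21.2% and 12.8% were called, which is the background for the counts of each list below. The share called in a single list ran from 0% (aquaporins) to 71.4% (receptors that start secretion) for SM2 against NC. It ran from 22.2% to 50% for SM4 against NC and from 6.67% to 42.9% for SM4 against SM2. Each list holds few genes, so its counts only describe them. A mean of at least 1 CPM was reached by 82 of the 93 list genes and by 14432 of all 19674 tested genes. Of those 82 list genes 45.1%, 41.5% and 19.5% were called, where 28.4%, 27% and 16.8% of all 14432 such genes were. The cause of the difference in shares was not tested.

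Among anion channels and exchangers, 15 of 19 genes were tested. LRRC8C, a subunit of the volume-regulated anion channel, fell by 0.75 on the log2 scale for SM2 against NC (edgeR adjusted p = 3.73e-07) and by 0.57 for SM4 against NC (adjusted p = 9.04e-06). SLC26A2, a sulfate transporter, fell by 0.26 and by 0.51 in the same comparisons. SLC26A11 fell by 0.36 and by 0.41, calls that were kept in 2 and 7 of the 9 fits that left out a library (-0.42 to -0.27 and -0.46 to -0.31), the second being lost without NC replicate 3 or SM4 replicate 1. In all, 5 genes fell and 0 rose for SM2 against NC, 4 fell and 1 rose for SM4 against NC, and 1 fell (SLC26A2, by 0.25) for SM4 against SM2. SLC26A2 was not called for SM2 against NC without NC replicate 3 or SM2 replicate 3 (-0.31 to -0.20 over the 9 fits), nor for SM4 against SM2 without SM2 replicate 1, SM2 replicate 2, SM4 replicate 2 or SM4 replicate 3 (also -0.31 to -0.20). The 4 genes of the list that were too low to test were CLCA2, CLCA4, SLC26A3 and SLC26A4, with SLC26A4 the highest of them at 0.328 CPM or less.

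Among the cation-chloride cotransporters and their kinases, 9 of 13 were tested, of which 1 rose for SM2 against NC, 2 rose for SM4 against NC and 1 rose for SM4 against SM2, and none fell at an adjusted p below 0.05. STK39, the kinase SPAK that phosphorylates SLC12A2, rose by a log2 fold change of 0.35 for SM4 against NC (edgeR adjusted p = 9.39e-06) and of 0.30 for SM4 against SM2 (adjusted p = 0.000111). SLC12A7, a potassium-chloride cotransporter, rose by 0.22 for SM2 against NC and by 0.25 for SM4 against NC. The kidney cotransporters SLC12A1 and SLC12A3 had 0 counts in all 9 libraries.

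All 9 bicarbonate and proton transporters were tested. The anion exchanger SLC4A3 rose by a log2 fold change of 0.59 for SM2 against NC (edgeR adjusted p = 0.00105) and of 0.70 for SM4 against NC (adjusted p = 0.000169). SLC4A11 rose by 0.51 and 0.48. The sodium-proton exchanger SLC9A2 moved the other way and fell by 0.42 for SM2 against NC, by 0.68 for SM4 against NC and by 0.27 for SM4 against SM2. The last call was lost without any single SM4 library and without SM2 replicate 1 or SM2 replicate 2 (-0.36 to -0.21). The group counts were 3 higher and 2 lower for SM2 against NC, 3 higher and 1 lower for SM4 against NC, and 1 lower for SM4 against SM2.

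Of the sodium channel subunits, proteases and regulators, 10 of 12 were tested, and 5 rose and 2 fell for SM2 against NC, 4 rose and 1 fell for SM4 against NC, and 1 rose for SM4 against SM2. FURIN, a protease that cleaves and activates the channel, rose by a log2 fold change of 0.39 for SM2 against NC (edgeR adjusted p = 3.41e-06), of 0.74 for SM4 against NC (adjusted p = 3.81e-10) and of 0.35 for SM4 against SM2. SGK1, a kinase that keeps the channel at the cell surface, rose from 33.4 CPM in NC to 52.8 in SM2 and 50.6 in SM4, or by 0.66 and 0.60 on the log2 scale.

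Of 6 tested potassium channel genes out of 11, 3 rose and 0 fell for SM2 against NC, 3 rose and 0 fell for SM4 against NC, and 1 rose and 1 fell for SM4 against SM2. KCNQ1, the channel that recycles potassium at the basolateral face of many secretory cells, rose from 14.4 CPM in NC to 25.2 in SM2 and 24.8 in SM4, a log2 fold change of 0.81 (edgeR adjusted p = 1.6e-08) and 0.78 (adjusted p = 1.83e-08). KCNK5 rose by 0.35 for SM4 against NC and by 0.23 for SM4 against SM2. KCNK1 rose by 0.22 for SM2 against NC and fell by 0.34 for SM4 against SM2. The small-conductance channel genes KCNN2 and KCNN3 and the large-conductance channel gene KCNMA1 did not reach the filter, the highest of them being KCNMA1 at 0.411 CPM. KCNN1, also a small-conductance channel gene, passed it at low counts, with means of 0.0748 CPM in NC, 0.337 in SM2 and 0.324 in SM4. Its rises of 2.20 for SM2 against NC and 2.14 for SM4 against NC are among those counted above.

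The sodium pump, which sets up the sodium gradient for all these transporters, gave 1 higher and 0 lower of 7 tested genes for SM2 against NC, 1 higher and 1 lower for SM4 against NC, and 2 higher and 1 lower for SM4 against SM2. FXYD5, a pump modulator, rose by 0.14 for SM4 against NC (call lost without NC replicate 1, NC replicate 3, SM4 replicate 2 or SM4 replicate 3, 0.12 to 0.17) and by 0.20 for SM4 against SM2. Of the 4 tested aquaporins, AQP3, which carries water and glycerol, rose from 162 CPM in NC and 167 in SM2 to 215 in SM4, a log2 fold change of 0.41 (adjusted p = 1.1e-05) and 0.37 (adjusted p = 7.08e-05), and no other was called.

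**Figure D3:**
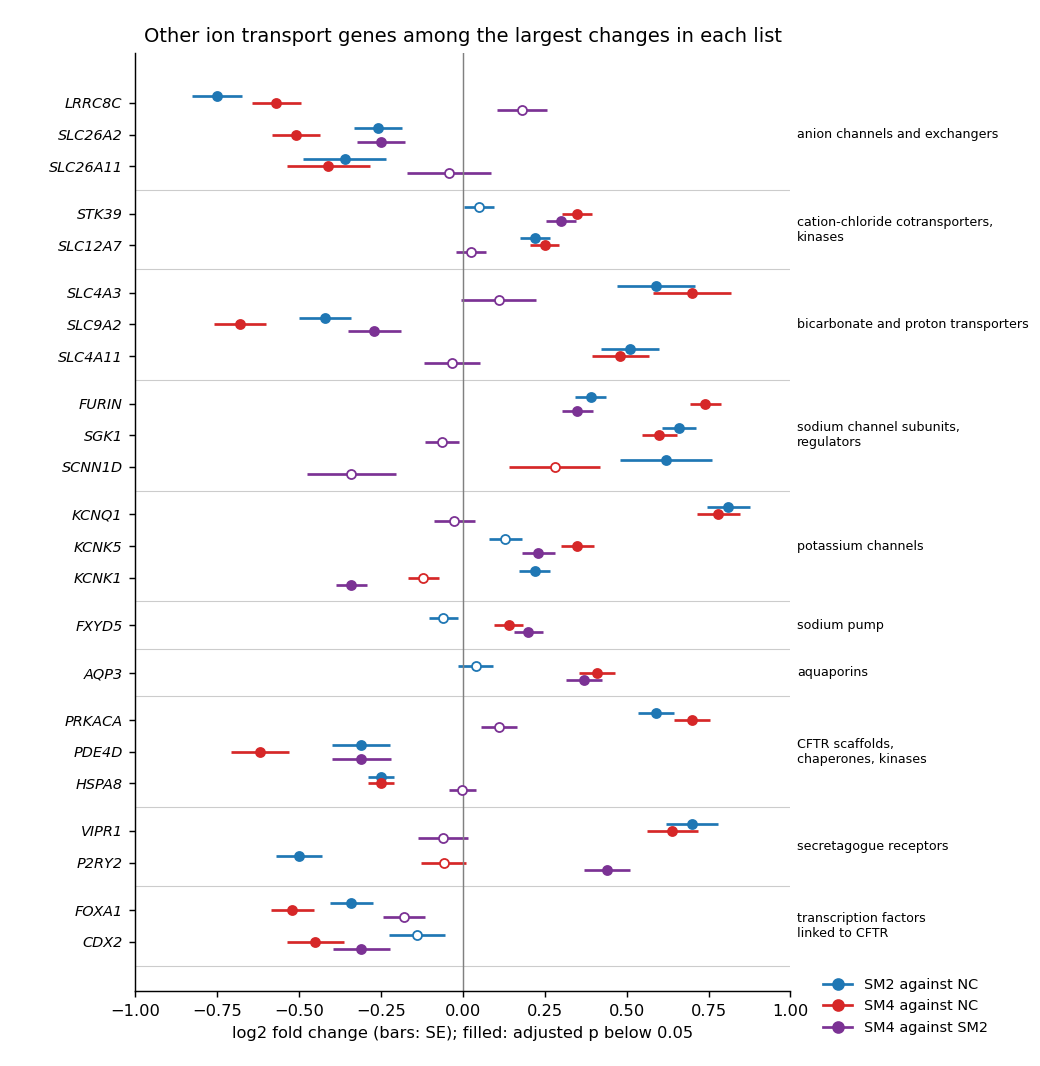
Log2 fold change (horizontal axis, bars are SE) in the 3 comparisons for up to 3 genes of each list, among those with the largest changes; filled symbols passed an adjusted p of 0.05. KCNQ1, SGK1, VIPR1, SLC4A3, SLC4A11 and PRKACA lie to the right of 0 for both SM2 and SM4 against NC, and LRRC8C, SLC9A2 and PDE4D lie to the left.

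Of 17 tested scaffolds, chaperones and kinases that act on the CFTR protein or on cyclic AMP, 3 rose and 5 fell for SM2 against NC, 2 rose and 6 fell for SM4 against NC, and 2 fell for SM4 against SM2. The other 9, 9 and 15 genes were not called. PRKACA, a catalytic subunit of the cyclic AMP-dependent kinase that opens CFTR, rose from 69.2 CPM in NC to 104 in SM2 and 112 in SM4 (log2 fold change 0.59, edgeR adjusted p = 1.26e-07, and 0.70, adjusted p = 7.86e-09). PDE4D, a phosphodiesterase that breaks down cyclic AMP, fell by 0.31, by 0.62 and, for SM4 against SM2, by 0.31. The first call of PDE4D was lost without NC replicate 1, NC replicate 2, SM2 replicate 2 or SM2 replicate 3 (-0.41 to -0.24) and the last without SM2 replicate 1, SM4 replicate 1 or SM4 replicate 2 (-0.38 to -0.22). HSPA8, a chaperone of CFTR folding and degradation, fell by 0.25 in both comparisons with NC.

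Receptors that start secretion changed in 5 of 7 tested genes for SM2 against NC (1 higher, 4 lower) and in 3 of 7 (1 higher, 2 lower) each for SM4 against NC and for SM4 against SM2. VIPR1, the receptor for vasoactive intestinal peptide, rose by a log2 fold change of 0.70 for SM2 against NC (edgeR adjusted p = 1.66e-06) and of 0.64 for SM4 against NC (adjusted p = 4.24e-06). P2RY2, a receptor for extracellular ATP that raises calcium, fell by 0.50 for SM2 against NC and rose by 0.44 for SM4 against SM2. The levels of P2RY2 were 52.4 CPM in NC, 37.2 in SM2 and 50.3 in SM4.

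Transcription factors that are linked to the CFTR gene in other epithelia gave 9 tested genes of 11. For SM2 against NC 3 rose and 1 fell, for SM4 against NC 2 rose and 2 fell, and for SM4 against SM2 2 fell, CDX2 among them. CDX2 fell by 0.45 for SM4 against NC (edgeR adjusted p = 0.000558) and by 0.31 for SM4 against SM2 (adjusted p = 0.0203), with 12.1, 10.9 and 8.8 CPM, the last call being lost without SM2 replicate 3, SM4 replicate 2 or SM4 replicate 3 (-0.37 to -0.26). FOXA1 fell by 0.34 for SM2 against NC and by 0.52 for SM4 against NC. FOXI1 was too low to test.

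The protein-coding neighbours of CFTR were read to see whether the region moved as a block. Of 11 such genes within 1 Mb, 6 were tested. CAV1, which encodes caveolin-1 and lies 726 kb before the GENCODE model of CFTR, stood at 311 to 332 CPM in NC, 389 to 430.2 in SM2 and 258 to 276 in SM4, with no overlap between groups. CAV1 rose by a log2 fold change of 0.31 for SM2 against NC (edgeR adjusted p = 4.69e-05) and fell by 0.30 for SM4 against NC (adjusted p = 8.91e-05) and by 0.61 for SM4 against SM2 (adjusted p = 1.87e-08). CAV2, beside it, rose by 0.28 (adjusted p = 0.000108) for SM2 against NC and fell by 0.35 (adjusted p = 1.43e-05) for SM4 against SM2, and gave -0.070 (adjusted p = 0.308) for SM4 against NC. CAV1 and CAV2 thus had their highest level in SM2, as CFTR did, with smaller differences.

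The genes between the caveolins and CFTR were not called. MET, CAPZA2 and ST7 had log2 fold changes from -0.041 to 0.087 over the 3 comparisons, and LSM8, 468 kb beyond CFTR, had 0.022, -0.049 and -0.071, with no call among the 4 genes. ST7 is the nearest tested neighbour, 56.9 kb before the CFTR model. WNT2, ANKRD7 and ENSG00000288635 had 0 counts in all libraries, and ASZ1 and CTTNBP2 did not reach the filter.

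**Figure D4:**
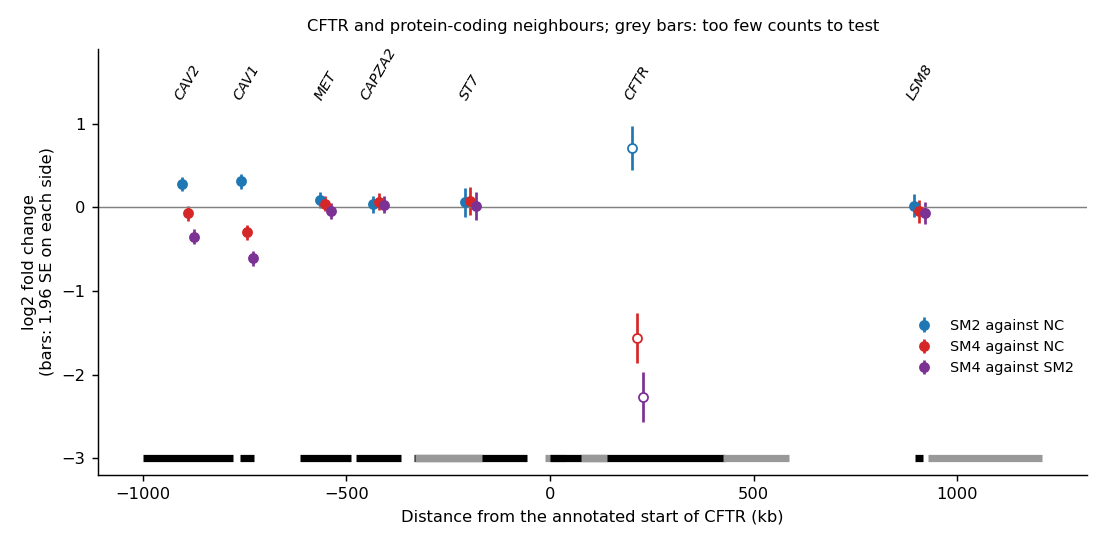
Log2 fold change (vertical axis, bars of 1.96 SE on each side) of CFTR and its tested neighbours by distance from the annotated start of CFTR in kilobases; open symbols mark CFTR, black bars at the bottom show tested genes and grey bars genes with too few counts. CAV1 and CAV2 differ between SM4 and SM2 by -0.61 and -0.35, and MET, CAPZA2, ST7 and LSM8 lie near 0.

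The genes with a pattern nearest to that of CFTR were found over the 9 libraries, by the root mean square difference of centred log2 CPM among 13788 genes. They were BMP2 (0.281), CXCL5 (0.325), GFPT2 (0.359), DNER (0.387) and VIM-AS1 (0.388). BMP2, a secreted bone morphogenetic protein, stood at 3.63 CPM in NC, 4.83 in SM2 and 1.17 in SM4, and CXCL5, a neutrophil chemokine, at 50.8, 85.4 and 27.6 CPM. GFPT2, an enzyme of hexosamine synthesis, stood at 11, 12.2 and 4.41 CPM. DNER, a Notch ligand, stood at 5.8, 5.73 and 2 CPM, so that its NC and SM2 levels were alike, and VIM-AS1, an antisense RNA of the vimentin locus, at 1.29, 2.74 and 0.303 CPM. Reads of VIM-AS1 and VIM cannot be told apart if strand was not used. The 5 genes were picked for likeness to CFTR and were given no test. Of the members, KCNN4 (rank 13705) and ANO1 (rank 13627) were among the genes farthest from the CFTR pattern, and SLC12A2 (rank 4163) and SCNN1A (rank 7439) were in between.

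**Figure D5:**
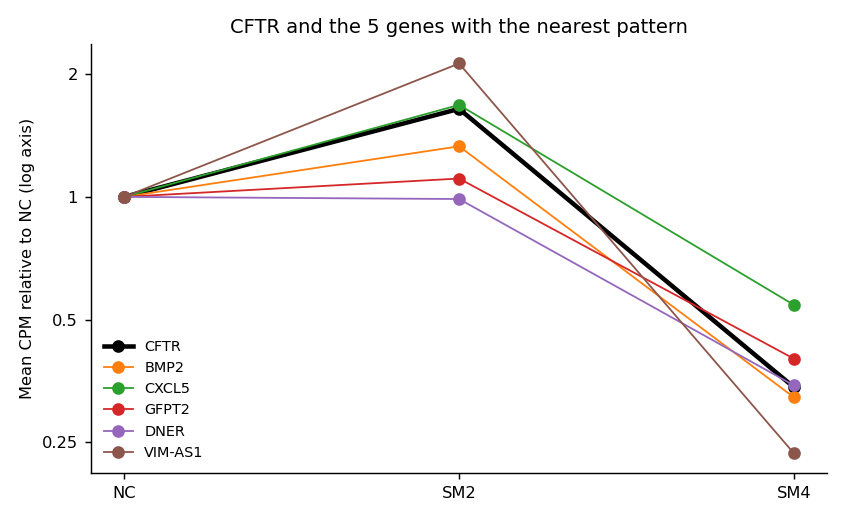
Mean CPM relative to the NC mean (log axis) of CFTR and of the 5 genes with the nearest pattern, in NC, SM2 and SM4. All 6 lines are lowest in SM4, and all except DNER are highest in SM2.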

How the data were processed

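The members, gene lists and tests were chosen with earlier results of these data known. The deposited table holds raw, whole-number gene counts of 9 libraries. Per the methods of the study, reads were aligned to hg38 with hisat2 and counted with Subread, and the submitters' processing notes also name fastp and featureCounts. Versions, gene annotation and strand setting are not given in the sources used here. The labels describe a stranded kit with paired reads, the methods another kit with single-end reads.

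Identifiers were matched to GENCODE v44 without their version suffix (60463 of 60649). In R 4.3.3, genes were filtered with filterByExpr and tested in edgeR 4.0.16 by quasi-likelihood, with TMM normalization and a group-only model of all 9 libraries (3 per group, the groups taken from titles). Benjamini-Hochberg adjustment covered 19674 genes, with calls made at 0.05. The biological coefficient of variation common to all genes was 0.0587. The script was tested on simulated data. Fold changes are fitted values with SE, and intervals are 1.96 SE on each side. Levels per kilobase use the canonical transcript.

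Totals were 44103272 to 63693728 counts, without molecular identifiers, so counting error is a lower limit. Nothing in the labels says that replicates came from separate cultures, so p-values measure the spread between these libraries, which may be technical. Replicate numbers were not taken to pair libraries.

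Named genes were METTL3, the 6 members, up to 3 genes per ion transport list (called at least once, mean of at least 1 CPM, largest absolute log2 fold change), protein-coding genes within 1 Mb of CFTR, and the 5 genes nearest to the CFTR pattern (prior count 2). Some genes named by this rule are not reported here, though list counts include them. Promoters came from RefSeq (GRCh38.p14). Alternatives tried were edgeR with upper-quartile or DESeq2 size factors, no filter, a mean of at least 1 CPM, a replicate block, only the 6 libraries compared, DESeq2 1.42.0, and leaving out each library.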

Additional observations from a re-analysis of the deposited data

Results flagged for a closer look

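Differences between SM2 and SM4 in their distance from NC were tested directly by SM4 against SM2, since NC drops out. ANO1 differed by a log2 fold change of 0.72 (edgeR adjusted p = 1.54e-09), with all 3 SM4 libraries above all SM2 libraries. KCNN4 differed by 0.75 (adjusted p = 0.000115), again with all 3 SM4 libraries above. No outlier test was made, since each group has 3 libraries.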

How the results depend on the processing

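CFTR, ANO1 and the SM4 values of KCNN4 kept their direction, and those tested their calls, in all 7 alternative settings and in all 9 fits that each left out a library. SLC12A2 for SM2 against NC did so too. For SM2 against NC, SCNN1A was not called with DESeq2 size factors (0.13, adjusted p = 0.0508) or with only the 6 libraries compared (0.13, adjusted p = 0.0782), and KCNN4 was not called without the filter (0.35, adjusted p = 0.0657) or with only the 6 libraries compared (0.35, adjusted p = 0.0918), where 2 members were called. For SM4 against NC, SCNN1A was called with upper-quartile normalization (0.14), a mean of at least 1 CPM (0.13), DESeq2 (0.13) and only the 6 libraries compared (0.12). For SM4 against SM2, SLC12A2 was called without the filter (-0.14). The cause of these shifts was not tested. SLC4A4 gave no value with a mean of at least 1 CPM, since that filter removed it.

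Over the fits that left out a library, SM2 against NC ranged from 2 called members (without NC replicate 2, NC replicate 3, SM2 replicate 2 or any SM4 library) to 3, 0.094 to 0.17 for SCNN1A, 0.90 to 1.35 for SLC4A4, 0.26 to 0.47 for KCNN4 and -0.073 to 0.047 for DNER, which changed sign without NC replicate 1 or SM2 replicate 3. SM4 against NC ranged from 2 to 5 called members, 0.12 to 0.19 for SLC12A2, 0.088 to 0.17 for SCNN1A and 0.75 to 1.20 for SLC4A4, with 2 called without NC replicate 3 or SM4 replicate 2. SM4 against SM2 ranged from 1574 called genes, without SM4 replicate 1, to 2748, beside 2518, and from -0.21 to -0.11 for SLC12A2 and -0.026 to 0.028 for SCNN1A, whose sign turned without SM2 replicate 2 or SM4 replicate 1. Among the other named genes, 669 of 720 values in these fits and 553 of 560 in the other settings kept direction and call, and the counts of list genes called stayed within 1.5 times.

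Replicate numbers are shared between groups, but deviations of same-numbered libraries correlated by only -0.053 to 0.0453, so the numbers were not taken to pair them. Differently numbered libraries gave -0.0651 to 0.0923. Each NC library correlated most with the same-numbered library of SM2 and of SM4, so a weak pairing is not excluded. With a replicate block, 4693, 4484 and 2815 genes were called in the 3 comparisons, SCNN1A was called for SM4 against NC (0.13) and SLC12A2 for SM4 against SM2 (-0.14), and no other member call changed. Among the members, SLC4A4, at 19 to 70 counts per library, had the largest SE.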
